A study of Rattus norvegicus with 10 samples.

Results

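Solute carriers are the membrane proteins that move nutrients, ions, transmitters and metabolites across the plasma membrane and the membranes of organelles, and their transcripts were examined in sensory axons of embryonic and adult rats. The genes were those with a solute carrier symbol of the Slc series, such as Slc4a7, in the platform's annotation, without the mitochondrial Slc25 carriers and without Slc2a1, Slc2a3 and Slc1a3. There were 251 such genes among 14217 genes on the array. A level limit then kept 51 of them, those with a mean of at least 5 on the log2 scale in either stage. Where a gene had several probe sets, the one that was highest on average across the 10 arrays stood for it. The axons came from dorsal root ganglia, which hold the cell bodies of sensory neurons. One group was 5 samples from rat embryos at embryonic day 16 and the other was 5 samples from adult rats, and no age or strain is given in the sources used here for the adults. In both groups ganglion explants had been cultured for 4 days in a chamber with separate compartments, and axons longer than 1 cm were taken from the outer one. The labels call the 5 samples of a stage biological replicates and name an embryo or an adult animal as the source of each. No treatment, transgene or selection of cells is named.

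Carriers of this series do not hydrolyse ATP themselves. Most take energy from ion gradients that the sodium-potassium pump and the vacuolar proton pump set up, some exchange one solute for another, and some let a solute run down its own gradient. In a sensory neuron they take up amino acids, choline and vitamins, load transmitter into vesicles, set chloride and pH inside the axon, and move zinc, copper and nucleotide sugars between cytosol and organelles. Some work only as pairs: the heavy chain encoded by Slc3a2 carries amino acid transporters of the Slc7 family, Slc7a11 among them, to the cell surface.

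Some features of the arrays touch every value below. All values are log2 expression values, on which a difference of 1 is a doubling. For each array a background level was set from 81 genes of other tissues, such as liver or testis: 95% of their 92 probe sets lay below it. It was between 2.94 and 4.11. The spread of values over an array, as a standard deviation, ran from 1.49 to 2.07, and 4 arrays lay above the middle of that range: embryonic replicates 1 and 5 and adult replicates 4 and 5. These 4 are called arrays of wide spread and the other 6 arrays of narrow spread. Poly-A control transcripts, which are added before labelling, were at 1.89 to 2.58 on embryonic arrays and at 7.86 to 12.02 on adult arrays, and a difference in labelling cannot be told apart from stage. Of 13 measured markers of sensory neurons, 11 were above background on all embryonic arrays and 9 on all adult arrays. Of 14 macrophage and leucocyte markers, 2 were above background on all embryonic and 12 on all adult arrays, and 8 of the 14 passed the test as higher in adult samples. Their mean per array was 3.28 to 5.90 in embryonic and 6.88 to 8.79 in adult samples. The leucocyte genes Itgam and Cd163 were above background on no embryonic array and on only 2 of 5 adult arrays each. No marker of Schwann cells (0 of 9), satellite glia (0 of 7), fibroblasts (0 of 9) or endothelium (0 of 7) passed the test by limma, while 1 of 5 blood cell markers and 4 of 13 sensory neuron markers were lower in adult samples. In RNA from many cells at once, fewer cells of a type and less RNA per cell cannot be told apart.

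The level limit drew the members unevenly from the stages. Of the 51 members, 19 reached a mean of 5 in both stages, 25 (49.0%) in adult samples alone and 7 (13.7%) in embryonic samples alone. Over the 5106 genes of the array that pass the same limit, 19.3% did so in adult samples alone and 20.2% in embryonic samples alone. A gene that entered through 1 stage alone had to be lower in the other, so the direction of those members follows from their choice and is given as a description. The genes nearest the limit had higher stage means of 5.06 (Slc29a3), 5.17 (Slc38a10) and 5.17 (Slc18a2) just inside it, and of 4.98 (Slc12a2), 4.95 (Slc35b3) and 4.95 (Slc18b1) just outside it. The remaining 200 carrier genes stayed below 5 in both stages, and 97 of the 251 were not above background on any adult array and 110 not on any embryonic array. By substrate, 9 of 42 amino acid carriers, 9 of 29 metal and haem carriers and 9 of 23 nucleotide sugar and acetyl-CoA carriers were kept, against 1 of 25 organic ion and bile acid carriers, 1 of 15 carboxylate carriers and 3 of 29 carriers of inorganic anions.

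**Figure D1:**
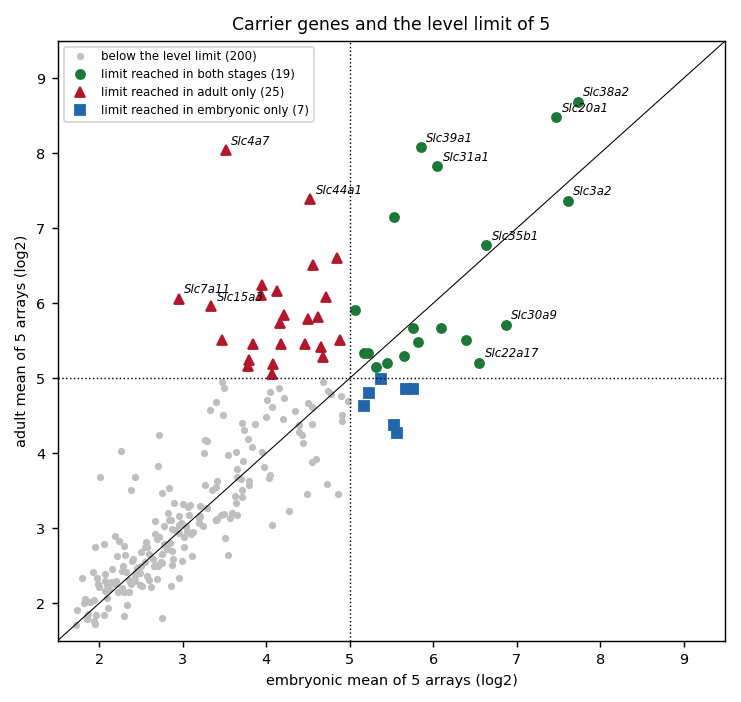
Mean log2 value of 5 adult arrays (vertical axis) against the mean of 5 embryonic arrays (horizontal axis) for each of the 251 carrier genes, with dotted lines at the level limit of 5 and a line of equal values. The 25 red triangles reached the limit in adult samples alone, the 7 blue squares in embryonic samples alone and the 19 green circles in both. Slc4a7 lies farthest from the line of equal values.

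The series compares embryonic with adult axons, and its title names axonal growth and pain as its themes. Among all 251 carrier genes, a set that no measured level defined, 1 passed the threshold, an adjusted p of 0.05 from limma over 31042 probe sets. This gene was Slc4a7, a sodium bicarbonate cotransporter, higher in adult samples. None was lower. Over all 14217 genes, 1.26% passed (0.612% higher and 0.647% lower in adult samples), and among genes past the same level limit 3.45% did (1.68% higher and 1.76% lower). Before adjustment, 21 of the 251 had a p under 0.05 (17 higher, 4 lower), against 13.3% of all genes (893 higher and 997 lower of 14217). The stages did not overlap for 2 of the 251, Slc4a7 and the anion exchanger gene Slc26a8, which lay below the level limit and was at 4.07 ± 0.94 on embryonic arrays and 3.04 ± 0.36 on adult ones (SD, n = 5; limma adjusted p = 0.44). Over all genes 3.54% did not overlap, 1.67% with all adult values on top. Slc26a8 was chosen for naming after its values were seen.

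The 51 members had a median change of 0.98 on the log2 scale, with 34 higher and 17 lower in adult samples, and without adult replicate 4 the median was 0.50. An unadjusted p under 0.05 was found for 14 of them, beside 26.9% of genes past the same limit, and 1 had stages that did not overlap, beside 7.5%. Over all genes past the same limit the median was -0.19 and 44.1% were higher. This contrast moves with the way members were chosen. For the 19 members at the limit in both stages the median change was -0.09, with 9 higher and 10 lower, beside a median of -0.19 for the 3089 such genes of the whole array. For the 36 carriers with a mean of at least 5 over all 10 arrays, a limit that does not use the stages, it was 0.70, beside -0.21 for all genes so chosen. Over all 251 carriers it was 0.082, and over all genes -0.00. Changes of single members ran from -1.34 (Slc22a17) to 4.53 (Slc4a7), and the median standard error was 0.71. The smallest change that passed the threshold for any gene of the array was 1.35.

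**Figure D2:**
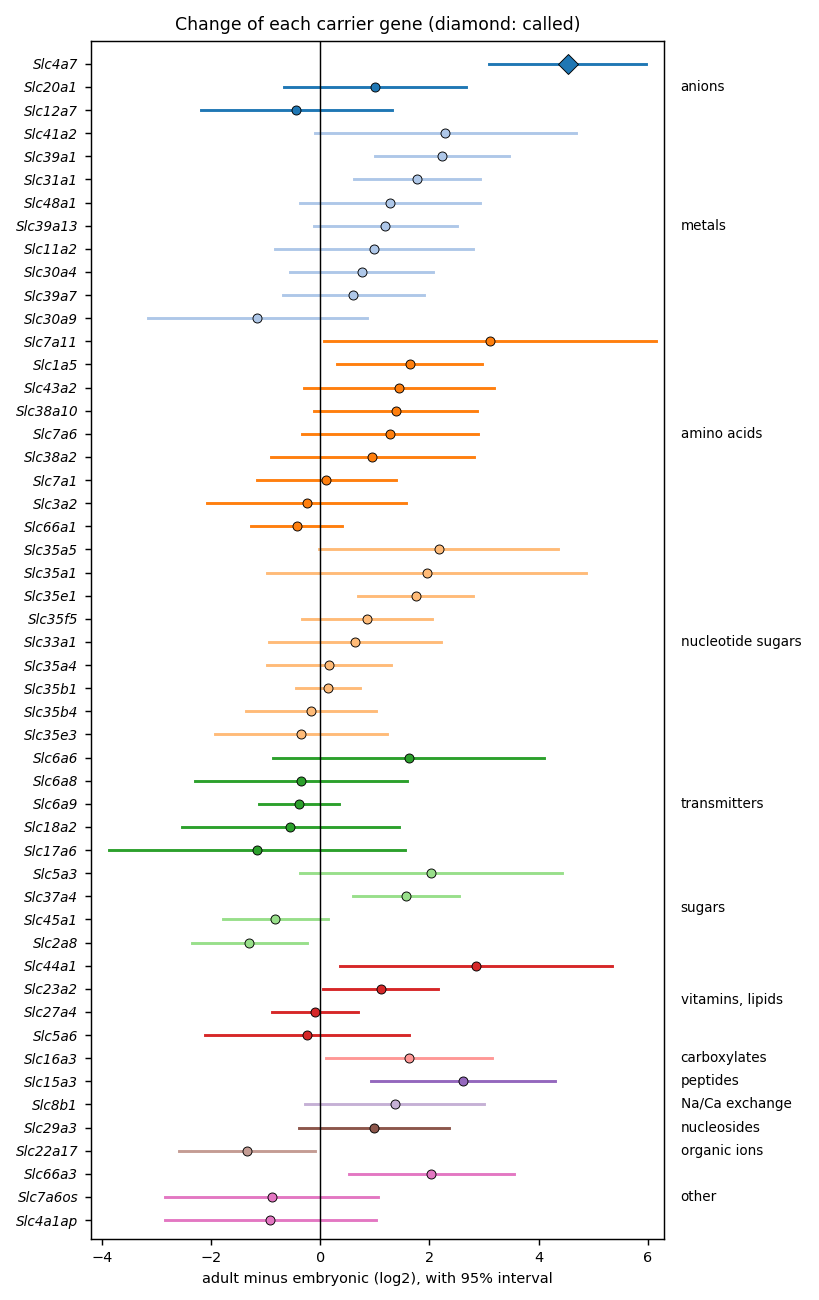
Adult minus embryonic log2 change of each of the 51 members (horizontal axis), with its 95% interval from limma, grouped by substrate. Slc4a7 (diamond) is the member past the threshold; metal carriers lie to the right of 0 except Slc30a9, and transmitter carriers to the left except Slc6a6.

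Carriers of inorganic anions set the pH and the chloride and phosphate content of the cell, and 3 of 29 were members. Slc4a7 encodes NBCn1, which brings in sodium with bicarbonate and so removes acid. Its values were 4.26, 2.92, 3.10, 4.82 and 2.46 in embryonic replicates 1 to 5 and 8.49, 7.33, 9.96, 7.89 and 6.54 in adult replicates 1 to 5. Every adult value lay above every embryonic one, with a gap from 4.82 to 6.54. In embryonic samples it was above background on 2 of 5 arrays, those of replicates 1 and 4, and in adult samples on all 5. The change was 4.53 ± 0.65 SE on the log2 scale, with an interval of 3.09 to 5.97 and limma adjusted p = 0.0101. The ratio of the stage levels was 23.1-fold, a value that depends on embryonic values near background, since 3 of the 5 were not above it. Within the arrays of narrow spread it was 4.98 (adjusted p = 0.0629) and within those of wide spread 3.86 (adjusted p = 0.20). A second probe set of Slc4a7 did not show it. There the embryonic values were 5.92, 2.87, 3.07, 2.96 and 2.94 and the adult values 5.05, 3.12, 4.95, 3.16 and 4.98, so the stages overlapped, and the change was 0.70 (limma adjusted p = 0.86). With both probe sets averaged the change was 2.62 (adjusted p = 0.046).

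The macrophage and leucocyte markers separated the stages as Slc4a7 did. Among adult arrays both were lowest on replicate 5, where the markers averaged 6.88 and Slc4a7 was at 6.54, and next on replicate 2, at 7.32 and 7.33. Replicate 1 was second highest for both, at 8.49 and 8.49. The order differed for the other two: the markers were at 7.80 on replicate 3 and 8.79 on replicate 4, and Slc4a7 at 9.96 and 7.89. Among embryonic arrays the markers were highest on replicate 1 (5.90), where Slc4a7 was at 4.26. Slc4a7 was highest on embryonic replicate 4 (4.82), where the markers were at 3.36. The part of the markers in the change of Slc4a7 was not tested. The other anion carriers passed no threshold. Slc20a1, which takes up phosphate with sodium, was above background on all 10 arrays, at 7.47 ± 0.97 on embryonic arrays and 8.48 ± 1.63 on adult ones (SD, n = 5), a change of 1.01 ± 0.75 SE with limma adjusted p = 0.78. Slc12a7, the potassium chloride cotransporter KCC4, was at 5.23 ± 1.40 and 4.80 ± 1.42 (adjusted p = 0.95). The chloride importer gene Slc12a2, which keeps chloride high in sensory neurons, lay just short of the limit at 4.98 ± 1.86 and 4.69 ± 1.44 (adjusted p = 0.97), and Slc12a5, the neuronal chloride exporter KCC2, was at 3.59 ± 0.51 and 3.20 ± 0.36 (adjusted p = 0.79).

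**Figure D3:**
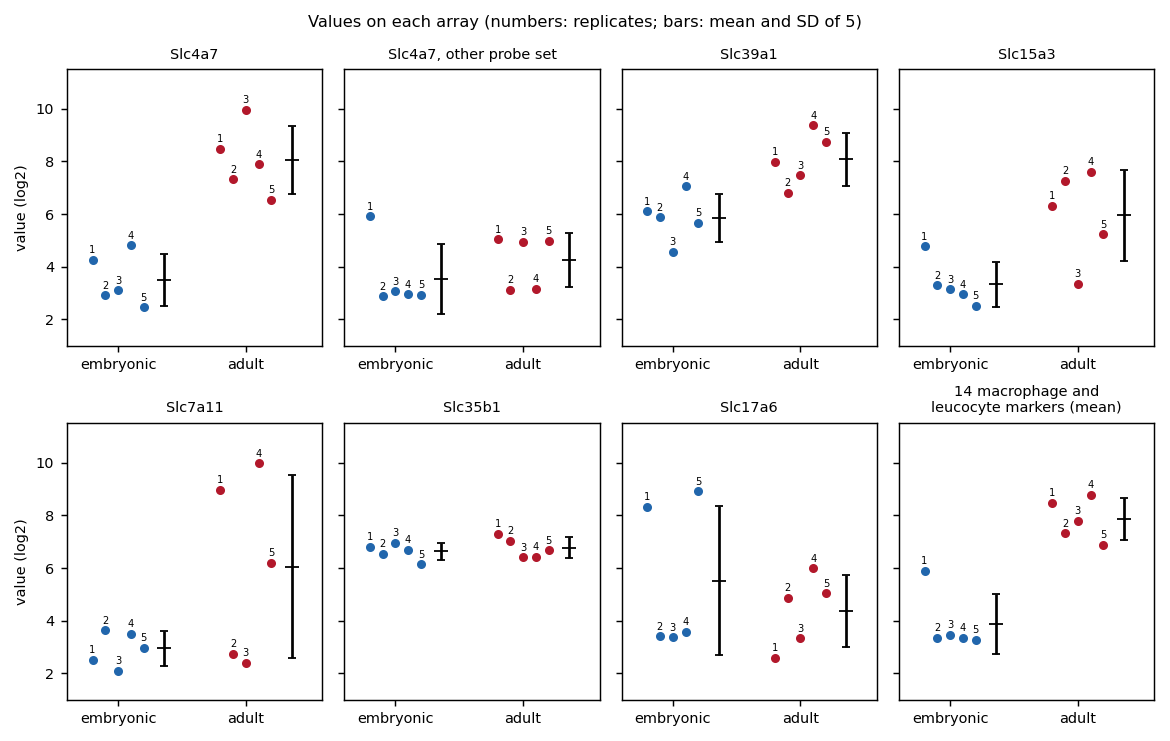
Log2 values on each array for 6 members, for the second probe set of Slc4a7 and for the mean of 14 macrophage and leucocyte markers; points are arrays with their replicate number, and bars give the mean and SD of 5 arrays. Slc4a7 separates the stages on one probe set and not on the other, Slc7a11 divides the adult arrays, and Slc17a6 is high on embryonic replicates 1 and 5.

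Metal and haem carriers, which supply enzymes and vesicles with zinc, copper and iron, had 9 members, 8 higher and 1 lower in adult samples, with a median change of 1.19 and 0 past the threshold by limma (2 at an unadjusted p under 0.05). Slc41a2, Slc48a1, Slc39a13, Slc11a2, Slc30a4 and Slc39a7 reached the level limit in adult samples alone, so their direction follows from their choice. Slc39a1, or ZIP1, brings zinc into the cell. It was at 6.11, 5.87, 4.56, 7.06 and 5.66 in embryonic and at 7.98, 6.81, 7.47, 9.38 and 8.76 in adult samples. The stages overlapped by 1 array each, embryonic replicate 4 lying above adult replicate 2. The change was 2.23 ± 0.55 SE, with an interval of 1.00 to 3.45 and limma adjusted p = 0.12. Quantile scaling brought it past the threshold at 2.31 (adjusted p = 0.039). Slc31a1, the copper importer CTR1, was at 6.45, 6.89, 4.12, 6.09 and 6.70 in embryonic and 8.19, 8.36, 7.94, 7.85 and 6.79 in adult samples. Embryonic replicate 3 was low, and only adult replicate 5 reached down into the embryonic range (change 1.78 ± 0.52 SE; limma adjusted p = 0.19).

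Other metal carriers varied more between arrays of a stage. Slc41a2, a magnesium carrier, was at 7.71, 7.83, 2.29, 7.50 and 5.86 in adult samples and at 4.25, 6.16, 2.71, 2.55 and 4.08 in embryonic ones. Adult replicate 3 was at the bottom of all 10 values and embryonic replicate 2 lay above adult replicate 5, and the change of 2.29 ± 1.08 SE had limma adjusted p = 0.53. Slc48a1, which releases haem from endosomes and lysosomes, had a difference of 1.28, the Golgi zinc carrier Slc39a13 of 1.19, the iron importer Slc11a2 (DMT1) of 0.98, the vesicular zinc carrier Slc30a4 of 0.76 and the zinc carrier Slc39a7 of the endoplasmic reticulum of 0.61, with limma adjusted p values of 0.57 to 0.86. Slc30a9 (ZnT9) was the one lower in adult samples, at 7.16, 7.57, 7.81, 3.60 and 8.18 in embryonic and 3.60, 5.14, 6.36, 6.46 and 7.00 in adult samples. Embryonic replicate 4 alone lay far below the other embryonic arrays, and the change was -1.15 ± 0.91 SE (limma adjusted p = 0.80).

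Amino acid carriers had 9 members, 7 higher and 2 lower in adult samples, with a median change of 1.28 and 0 past the threshold by limma (2 at an unadjusted p under 0.05). The direction of Slc7a11, Slc1a5, Slc43a2, Slc38a10 and Slc7a6 follows from their choice, as they reached the level limit in adult samples alone. Slc7a11 encodes xCT, which imports cystine for glutathione synthesis in exchange for glutamate. It was at 2.53, 3.64, 2.10, 3.51 and 2.98 in embryonic and at 8.98, 2.74, 2.40, 9.99 and 6.20 in adult samples. The adult arrays were split: replicates 1 and 4 stood high, replicate 5 in between, and replicates 2 and 3 within the embryonic range. The mean of macrophage and leucocyte markers was also highest on adult replicates 4 (8.79) and 1 (8.49), against 6.88 to 7.80 on the other adult arrays. The order of those others differed. The marker mean was lowest on adult replicate 5 (6.88), where Slc7a11 was at 6.20. It was at 7.32 and 7.80 on adult replicates 2 and 3, where Slc7a11 was at 2.74 and 2.40. Single markers differed in their order. Cd163 was at 7.46 on adult replicate 1 and 6.82 on adult replicate 4, and at 1.82 to 2.63 on the other 3. Adgre1 and Aif1 were highest on adult replicate 3, at 10.85 and 7.55. Aif1 and Lcp1 were lowest on adult replicate 1, at 5.49 and 8.82. Cd163, Adgre1, Aif1 and Lcp1 were chosen for naming here after their values were seen. The part of the macrophage and leucocyte markers in the values of Slc7a11 was not tested. The change of 3.11 ± 1.38 SE had an interval of 0.07 to 6.15 and limma adjusted p = 0.49. Within the arrays of narrow and wide spread it was 1.63 and 5.34. Slc3a2, the heavy chain that Slc7a11 needs at the surface, was at 7.64, 7.37, 7.83, 5.83 and 9.39 in embryonic and 6.19, 5.45, 7.30, 9.68 and 8.20 in adult samples, with the stages interleaved. Its change was -0.25 ± 0.83 SE, with an interval of -2.07 to 1.58 (adjusted p = 0.97). Another partner of the heavy chain, the leucine carrier Slc7a5, stayed below the level limit at 3.71 ± 0.83 and 3.41 ± 0.77 (SD, n = 5; adjusted p = 0.94). Slc7a6, the exchanger y+LAT2 and also a partner, had a difference of 1.28 ± 0.73 SE (adjusted p = 0.66).

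Among neutral amino acid carriers, Slc1a5 (ASCT2), which exchanges glutamine, was at 3.52, 3.63, 4.02, 4.82 and 5.06 in embryonic and 5.60, 6.87, 4.35, 7.49 and 4.91 in adult samples. Adult replicates 3 and 5 lay within the embryonic range, and the change was 1.64 ± 0.60 SE (limma adjusted p = 0.35). Slc38a2 (SNAT2), which takes up small neutral amino acids with sodium, was at 7.81, 7.91, 4.37, 9.29 and 9.28 in embryonic and 9.48, 8.63, 7.96, 9.31 and 8.05 in adult samples. Embryonic replicate 3 stood apart as the low array, the change was 0.95 ± 0.84 SE and the adjusted p was 0.83. The related Slc38a10 and the leucine carrier Slc43a2 (LAT4) had differences of 1.38 and 1.44, with limma adjusted p values of 0.56 and 0.63. Slc7a1, which takes up arginine and lysine, and Slc66a1, which lets cationic amino acids out of lysosomes, had changes of 0.11 and -0.43 with intervals of -1.16 to 1.39 and -1.26 to 0.40. The name of the probe set used for Slc66a1 marks it as one that may match other sequences. The gene's other probe sets stayed below the level limit, with embryonic and adult means of 2.73 and 2.98 and of 4.54 and 4.27. Slc38a1 (SNAT1), below the limit, was at 4.44 ± 1.91 and 4.14 ± 1.34 (SD, n = 5; adjusted p = 0.97).

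Nucleotide sugar and acetyl-CoA carriers feed glycosylation and acetylation in the Golgi apparatus and endoplasmic reticulum. They had 9 members, 7 higher and 2 lower, with a median change of 0.63 and 0 past the threshold by limma (1 at an unadjusted p under 0.05). Slc35a5, Slc35a1, Slc35e1 and Slc33a1 reached the level limit in adult samples alone, so their direction follows from their choice. Slc35b1, of the endoplasmic reticulum, was at 6.81, 6.55, 6.97, 6.70 and 6.15 in embryonic and 7.31, 7.04, 6.42, 6.43 and 6.68 in adult samples. The 10 values lay between 6.15 and 7.31 and the stages interleaved, which left the narrowest interval of any member, -0.45 to 0.72 around a change of 0.14 (limma adjusted p = 0.95). Its second probe set had a difference of -0.91 (adjusted p = 0.82). Slc35e1, whose substrate is little known, was at 5.39, 4.76, 4.49, 5.58 and 4.01 in embryonic and 6.40, 8.03, 6.09, 6.92 and 5.55 in adult samples. Adult replicate 5 shared the upper end of the embryonic range and the other adult arrays lay above it (change 1.75 ± 0.48 SE; adjusted p = 0.16).

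Both Slc35a1 and Slc35a5 divided the arrays within a stage. Slc35a1, which brings CMP-sialic acid into the Golgi, was at 6.09, 3.37, 3.44, 3.35 and 6.55 in embryonic and 8.74, 2.99, 3.50, 8.89 and 8.42 in adult samples. The high arrays were those of wide spread and adult replicate 1, and the change of 1.95 ± 1.32 SE had limma adjusted p = 0.74. Slc35a5 was at 5.35, 2.10, 3.46, 2.22 and 6.55 in embryonic and 6.89, 8.06, 3.77, 5.61 and 6.21 in adult samples, a change of 2.17 ± 0.99 SE (adjusted p = 0.51). That change was 3.65 within the arrays of narrow spread and -0.03 within those of wide spread. The acetyl-CoA carrier Slc33a1 had a difference of 0.63, Slc35f5 of 0.86, Slc35a4 of 0.16, Slc35b4 of -0.17 and Slc35e3 of -0.35, with limma adjusted p values of 0.71 to 0.97.

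Carriers of transmitters, taurine and creatine had 5 members, 1 higher and 4 lower in adult samples, with a median change of -0.39 and 0 past the threshold by limma, at an unadjusted p under 0.05 also 0. The direction of Slc6a9, Slc18a2 and Slc17a6 follows from their choice, as they reached the level limit in embryonic samples alone. Slc17a6, the vesicular glutamate transporter VGLUT2 of sensory neurons, was at 8.32, 3.42, 3.38, 3.59 and 8.92 in embryonic and 2.59, 4.88, 3.34, 5.99 and 5.05 in adult samples. Embryonic replicates 1 and 5 were high, and the other 3 embryonic arrays lay within the adult range. The change was -1.16 ± 1.23 SE (limma adjusted p = 0.88), with 0.14 within the arrays of narrow spread and -3.10 within those of wide spread. Markers of sensory neurons were also highest on embryonic replicates 1 and 5, where their mean was 9.25 and 9.04, against 6.72 to 7.94 on the other embryonic and 5.47 to 7.17 on adult arrays. Other arrays differed in order. Slc17a6 was highest among adult arrays on replicate 4 (5.99), where the markers were lowest (5.47). On embryonic replicates 2 to 4 it was at 3.38 to 3.59, below adult replicates 2, 4 and 5. The part of the markers in the values of Slc17a6 was not tested. Slc17a7, or VGLUT1, stayed below the limit at 3.62 ± 0.59 and 3.42 ± 0.86 (SD, n = 5; adjusted p = 0.96).

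On the probe set used, Slc18a2, which loads monoamines into vesicles, owed its place among the members to 1 array. It was at 5.24, 3.86, 3.94, 9.04 and 3.76 in embryonic and 4.58, 4.95, 4.12, 4.40 and 5.06 in adult samples, and embryonic replicate 4 stood far above the other 9 (change -0.54 ± 0.90 SE; limma adjusted p = 0.94). The taurine carrier Slc6a6 was the one member of this class that was higher in adult samples, at 7.31, 4.74, 3.15, 7.66 and 4.76 in embryonic and 8.54, 3.94, 6.08, 9.28 and 7.89 in adult samples. The stages overlapped widely, and the change of 1.62 ± 1.12 SE had adjusted p = 0.75. The creatine carrier Slc6a8 was at 5.82 ± 1.63 and 5.48 ± 1.53 (SD, n = 5), a change of -0.34 ± 0.88 SE (limma adjusted p = 0.97). Slc6a9, the glycine carrier GlyT1, was above background on all 10 arrays and had a difference of -0.39 ± 0.33 SE, with an interval of -1.11 to 0.34.

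Sugar, inositol and sugar phosphate carriers had 4 members, 2 higher and 2 lower, and 0 past the threshold by limma (2 at an unadjusted p under 0.05). Each reached the level limit in 1 stage alone, so its direction follows from its choice. Slc37a4, which brings glucose 6-phosphate into the endoplasmic reticulum, was at 4.50, 3.67, 3.89, 3.64 and 5.11 in embryonic and 4.67, 5.21, 6.66, 6.36 and 5.75 in adult samples. The overlap was at embryonic replicate 5 and adult replicate 1 (change 1.57 ± 0.44 SE; limma adjusted p = 0.17). Slc5a3, the inositol importer SMIT1, was at 5.10, 3.98, 2.04, 2.07 and 7.46 in embryonic and 8.83, 5.11, 6.43, 5.16 and 5.25 in adult samples. The change over all arrays was 2.03 ± 1.09 SE (adjusted p = 0.62), and it was 4.09 within the arrays of narrow spread and -1.08 within those of wide spread. Slc2a8, the intracellular glucose transporter GLUT8, was at 4.92, 6.37, 4.56, 6.41 and 5.56 in embryonic and 4.15, 4.01, 3.23, 5.35 and 4.59 in adult samples. Adult replicates 4 and 5 lay within the embryonic range and the other 3 below it (change -1.29 ± 0.48 SE; adjusted p = 0.35). Slc45a1 had a difference of -0.82 (adjusted p = 0.61).

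Carriers of vitamins, choline and fatty acids had 4 members, 2 higher and 2 lower, and 0 past the threshold by limma (2 at an unadjusted p under 0.05). The direction of Slc44a1 and Slc23a2 follows from their choice, as they reached the level limit in adult samples alone. Slc44a1 takes up choline, the precursor of membrane phospholipids. It was at 4.56, 5.35, 1.94, 7.83 and 2.95 in embryonic and 9.36, 7.04, 4.61, 7.61 and 8.29 in adult samples. Embryonic replicate 4 reached the adult level and adult replicate 3 the embryonic level, and the change of 2.86 ± 1.13 SE had an interval of 0.36 to 5.35 and limma adjusted p = 0.40. Its other probe sets had differences of 0.50 and 1.62 (adjusted p = 0.92 and 0.16). Slc23a2, the ascorbate importer SVCT2 of neurons, was at 4.08 ± 0.30 and 5.19 ± 1.10 (SD, n = 5; change 1.11 ± 0.48 SE; adjusted p = 0.46). The fatty acid transport protein gene Slc27a4 had a difference of -0.09, with an interval of -0.88 to 0.69, and Slc5a6, which takes up biotin and pantothenate, of -0.24, with an interval of -2.11 to 1.63.

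The 5 further classes had 1 member each, and none of these passed the threshold by limma, though 3 had an unadjusted p under 0.05. Slc15a3 encodes a lysosomal carrier of histidine and short peptides that is known from macrophages. It was at 4.77, 3.30, 3.14, 2.96 and 2.52 in embryonic and 6.31, 7.28, 3.36, 7.61 and 5.23 in adult samples. Adult replicate 3 lay among the embryonic arrays, and embryonic replicate 1 was the highest of its stage. The change was 2.62 ± 0.76 SE, with an interval of 0.93 to 4.30 and limma adjusted p = 0.19, and without adult replicate 3 it was 3.27 (adjusted p = 0.045). The mean of macrophage and leucocyte markers was also highest among embryonic arrays on replicate 1 (5.90), but on adult replicate 3 (7.80) it lay inside the adult range of 6.88 to 8.79. Their part in the values of Slc15a3 was not tested.

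Slc16a3, the lactate exporter MCT4, was at 3.45, 4.12, 3.86, 4.41 and 3.36 in embryonic and 5.07, 4.32, 4.78, 8.41 and 4.72 in adult samples. Adult replicate 4 stood far above the rest, and the change was 1.62 ± 0.69 SE (limma adjusted p = 0.46). Slc16a1 (MCT1) stayed below the limit at 4.01 ± 1.16 and 4.71 ± 1.72 (SD, n = 5; adjusted p = 0.90). Slc22a17, a receptor for the iron-binding lipocalin 2 that carries an organic cation carrier symbol, had the lowest change of the members. It was at 7.30, 5.07, 5.93, 6.67 and 7.78 in embryonic and 5.24, 4.69, 4.71, 4.71 and 6.69 in adult samples, and adult replicate 5 stood above the other adult arrays (change -1.34 ± 0.56 SE; adjusted p = 0.45). Slc8b1, the sodium-calcium exchanger of mitochondria, had a difference of 1.36 ± 0.75 SE (adjusted p = 0.63), and Slc29a3, which lets nucleosides out of lysosomes, of 0.99 ± 0.62 SE (adjusted p = 0.71). The 3 members outside the substrate classes were Slc66a3 (2.04; adjusted p = 0.28) and 2 genes that bear a carrier's symbol but are not carriers, Slc7a6os (-0.89; adjusted p = 0.86) and the kanadaptin gene Slc4a1ap (-0.91; adjusted p = 0.86).

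The level of the members differed between arrays of a stage. The median of the 51 was 5.38, 4.74, 4.02, 4.82 and 5.26 on embryonic replicates 1 to 5 and 5.77, 5.11, 4.61, 6.71 and 5.75 on adult replicates 1 to 5. The lowest array was embryonic replicate 3, where 25 members were above background, and the highest was adult replicate 4, where all 51 were. Arrays of wide spread held 44 to 51 members above background and arrays of narrow spread 25 to 49. The background level itself was lower on arrays of wide spread, at 2.94 to 3.38 against 3.42 to 4.11. These counts therefore do not measure the level of the members alone. The median of all genes past the same limit was 6.38 to 6.71 on arrays of wide spread and 5.12 to 5.73 on those of narrow spread. For 36 of the 51 members the embryonic arrays of wide spread averaged higher than those of narrow spread, for 37 the adult arrays did, and for 29 both did. Over all genes past the same limit the shares were 73.1%, 82.7% and 62.1%, beside 70.6%, 72.5% and 56.9% of the members. The change between stages had the same sign within both classes of arrays for 37 members, 28 higher and 9 lower in adult samples. Members that entered through a single stage had their direction set by their choice on these same arrays. This count is therefore a description, and it stands without the share over all genes. Fibroblast markers averaged 6.52 and 6.81 on adult replicates 4 and 5, against 3.11 to 5.13 on the other adult arrays, and satellite glia markers 6.39 and 6.05 against 4.36 to 5.43. On the embryonic arrays of wide spread, replicates 1 and 5, the fibroblast markers were at 4.65 and 3.97, below the 4.93 to 5.01 of the narrow ones, and the satellite glia markers at 5.59 and 5.10, above the 4.47 to 5.03 of the narrow ones. The part of array spread and of these cells in the members' values was not tested.

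**Figure D4:**
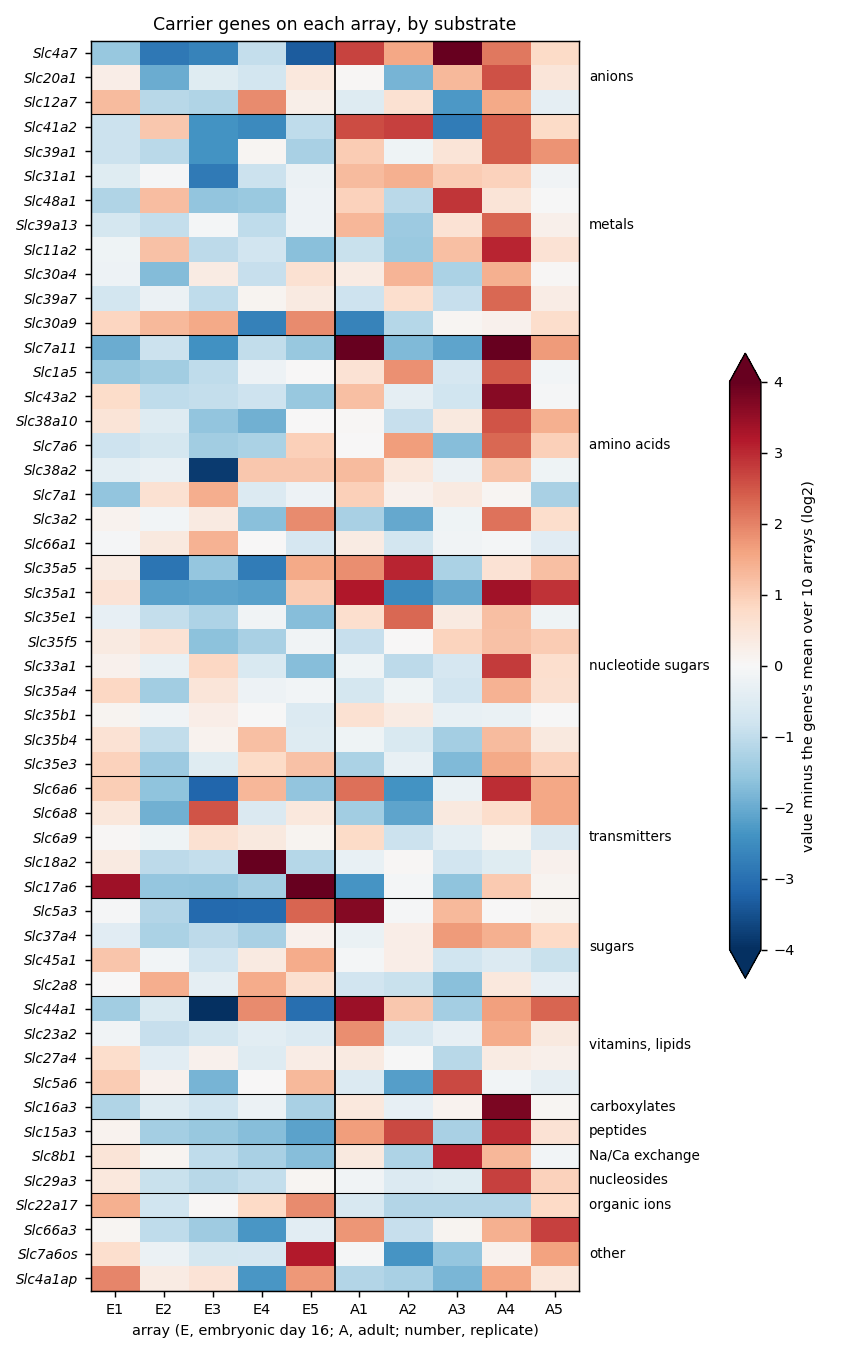
Each member's log2 value on each array minus its own mean over 10 arrays (colour, full colour at 4 or more in either direction), with arrays in columns and genes grouped by substrate. Slc4a7 changes colour between the stages, and adult replicate 4 (column A4) is red for most members.

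Most members rest on 1 probe set. Of the 51, 28 had a single probe set and 23 had several, with 34 further probe sets between them. Of these 34, 22 had a difference of the same sign as the probe set used and 12 of the opposite sign, 0 passed the threshold by limma (lowest adjusted p = 0.16), and only 4 reached the level limit. The probe set used was by construction the one with the highest mean. By location, 21 members were on a list of carriers of vesicles, lysosomes, Golgi apparatus and endoplasmic reticulum, with a median change of 0.76 and 15 higher. The other 30 acted mainly at the plasma membrane or were unassigned, with a median of 1.20 and 19 higher; this group holds Slc8b1 and Slc30a9, which act in mitochondria. Both groups hold members that entered through 1 stage alone, and the difference between them was not tested.

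Carriers depend on pumps and partner proteins, and of 38 such genes measured, 2 passed the limma threshold as higher in adult samples and 1 as lower. By sign alone 19 were higher and 19 lower, and the median change was -0.02. Over all genes 1.26% passed, and 3.45% of those past the level limit of 5, which 27 of the 38 reached. Fxyd2, a small subunit that tunes the sodium-potassium pump, was at 5.12, 3.40, 4.36, 3.88 and 3.82 in embryonic and 6.63, 6.16, 8.02, 7.15 and 7.07 in adult samples. All adult values lay above all embryonic ones (change 2.89 ± 0.41 SE; limma adjusted p = 0.00932). Atp6v0e1, a subunit of the membrane sector of the vacuolar proton pump, which acidifies vesicles and lysosomes, was at 7.36, 6.66, 6.94, 6.82 and 6.97 in embryonic and 9.80, 8.25, 9.27, 9.83 and 10.08 in adult samples. Here too the stages were apart (change 2.50 ± 0.35 SE, limma adjusted p = 0.00885). The probe set is the only one of the gene, and its name marks it as matching several transcripts. The other 13 subunits of that pump on the list did not pass, and Atp6v0c, the proton-carrying ring subunit, had a difference of -0.87 and Atp6v1a, the ATP-binding one, of 0.29 (adjusted p = 0.76 and 0.97). Both called rises, like that of Slc4a7, run beside the higher macrophage and leucocyte markers given above. Among adult arrays the order differed. Atp6v0e1 was highest on replicate 5 (10.08), where the markers were lowest (6.88), and Fxyd2 on replicate 3 (8.02), where the markers were at 7.80. Both genes were lowest on adult replicate 2, where the markers were at 7.32. Among embryonic arrays both genes and the markers were highest on replicate 1. The part of the markers in these rises was not tested.

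Wnk2, a kinase of the family that controls the Slc12 chloride carriers, was at 7.07, 5.45, 6.40, 5.34 and 5.85 in embryonic and 3.96, 2.95, 4.71, 3.38 and 3.25 in adult samples, and every embryonic value lay above every adult one. Its change was -2.37 ± 0.43 SE (limma adjusted p = 0.032), and the call held in only 2 of 10 omissions of an array (adjusted p of 0.022 to 0.087). Sensory neuron markers were lower in adult samples too, with a median change of -2.23, 4 of 13 past the threshold and array means of 6.72 to 9.25 in embryonic against 5.47 to 7.17 in adult samples. Among embryonic arrays Wnk2 and the markers were both highest on replicate 1. The order of adult arrays differed. The markers were highest on replicate 5 (7.17), where Wnk2 was at 3.25, and Wnk2 on replicate 3 (4.71), where the markers were at 5.83. The part of the markers in the difference of Wnk2 was not tested. Wnk1, Stk39 and Oxsr1, of the same pathway, had differences of 0.56, -0.35 and -1.82 (adjusted p = 0.86, 0.97 and 0.38). Emb and Bsg, which escort lactate carriers to the surface, had differences of 1.77 and -0.27 (adjusted p = 0.29 and 0.97). The sodium-potassium pump subunits Atp1b1 and Atp1b3 had differences of -1.00 and 1.83 (adjusted p = 0.73 and 0.39).

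**Figure D5:**
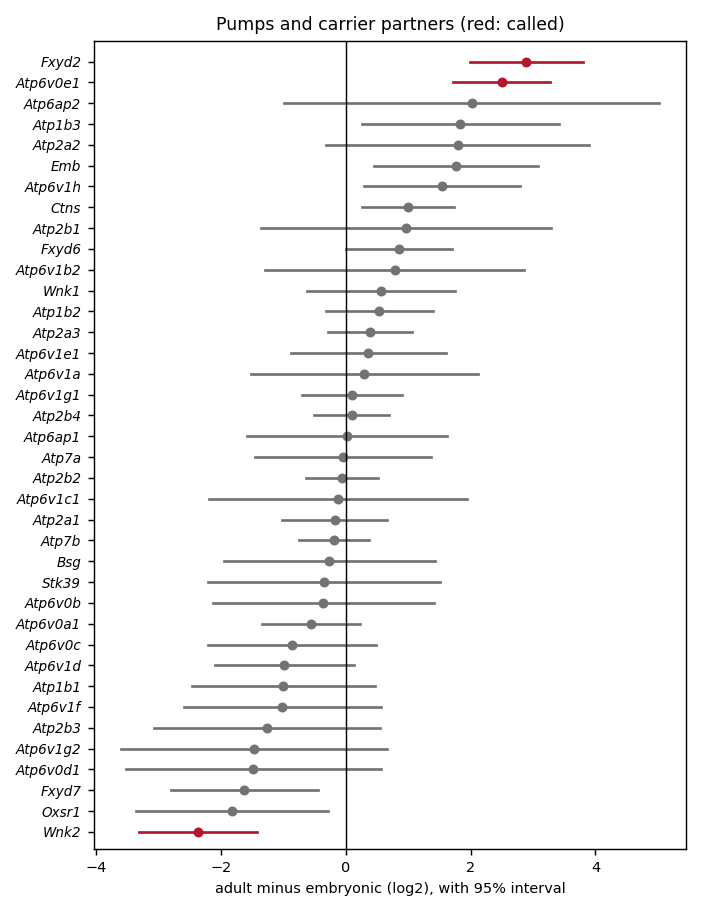
Adult minus embryonic log2 change of 38 pump and partner genes, with the 95% interval from limma; red marks the 3 genes past the threshold. Fxyd2 and Atp6v0e1 lie above 0 and Wnk2 below.

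Several carriers well known in neurons or axons were below the level limit, where RMA values compress a change. The sodium-calcium exchanger gene Slc8a1 was at 3.56 ± 2.02 on embryonic arrays and 3.14 ± 0.53 on adult ones (SD, n = 5), and the bicarbonate cotransporter gene Slc4a4 at 3.49 ± 0.61 and 3.19 ± 0.79. The vesicular zinc carrier Slc30a3 was at 4.21 ± 0.55 and 4.73 ± 0.86, the zinc and iron importer Slc39a14 at 3.29 ± 1.72 and 4.16 ± 1.38, and the iron exporter Slc40a1 (ferroportin) at 4.90 ± 0.97 and 4.51 ± 0.41. None of these 5 passed the threshold by limma, with adjusted p values of 0.82 to 0.96. Of carriers left out by the rule, Slc2a1, Slc2a3 and Slc1a3 had differences of 2.17, -0.87 and 0.18 (adjusted p = 0.0734, 0.79 and 0.98). The 14 Slc25 carriers of mitochondria past the same limit had a median change of -0.28, with 5 higher, 9 lower and 0 called by limma, at an unadjusted p under 0.05 also 0.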

How the data were processed

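Axonal RNA of 5 embryonic and 5 adult samples was extracted with Trizol, labelled with biotin by in vitro transcription and hybridised to 1-colour Affymetrix rat arrays, per the labels' protocols. The deposited values are log2 expression values made by the authors with RMA, per the submitters' processing notes, and they were used as deposited. RMA scales arrays to each other and compresses differences near background. The number of arrays limits the precision. Of 31099 probe sets, 57 controls were left out. Of the other 31042, 20826 had 1 gene symbol in the platform annotation, 436 had several and 9780 none, and only the first were named. All 251 carrier symbols matched RefSeq gene names, with 0 changed.

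Adult minus embryonic differences were tested two-sided on R 4.3.3 by limma 3.58.1, with lmFit followed by eBayes and no covariate, over all 31042 probe sets, with Benjamini-Hochberg adjustment and a threshold of 0.05. The script was tested on simulated data. Errors of group means are SDs of 5 samples, and intervals cover 95%. The members and gene lists were chosen with earlier results of these data known. The list of tissue-restricted genes behind the background level was drawn up for this work after the array table was at hand. Substrate classes, organelle carriers, pumps and partners and cell type markers came from written lists. Genes were named if they passed the threshold, had one of the 5 largest or 5 smallest changes or one of the 10 highest means, led a substrate class in level or change, lay next to the level limit, or were on a written list; the remaining members are given more briefly, and those shown by array outside this rule (Slc35e1, Slc35a1 and Slc37a4) and Slc26a8 were chosen after their values were seen. Alternatives were quantile and median scaling, a variance trend, array weights, replicate number or array spread as a block, each spread class alone, a filter on low values, other probe set rules, other level limits and omission of each array.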

Additional observations from a re-analysis of the deposited data

Results flagged for a closer look

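In 11 of 134 groups of 5 arrays examined, for members and other named carriers, 1 array stood far from the other 4 of its stage by Dixon's test; chance gives about 5%. Among members, Slc30a9 was at 3.60 on embryonic replicate 4, against 7.16 to 8.18 on the other embryonic arrays, and Slc31a1 at 4.12 on embryonic replicate 3, against 6.09 to 6.89. Slc18a2 was at 9.04 on embryonic replicate 4, against 3.76 to 5.24, and Slc7a6 at 5.78 on embryonic replicate 5, against 3.43 to 4.10. In adult samples, Slc16a3 was at 8.41 on replicate 4, against 4.32 to 5.07, Slc22a17 at 6.69 on replicate 5, against 4.69 to 5.24, and Slc27a4 at 4.60 on replicate 3, against 5.70 to 6.06.

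Below the level limit, Slc7a5 was at 5.14 on embryonic replicate 3, against 3.09 to 3.64, Slc30a3 at 5.15 on embryonic replicate 2, against 3.84 to 4.20, and Slc39a14 at 6.31 on embryonic replicate 4, against 2.11 to 3.11. Slc38a1 was at 6.51 on adult replicate 1, against 3.27 to 3.87.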

How the results depend on the processing

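Slc4a7 was called in each of the 10 omissions of an array (change 4.05 to 4.91) and under the scaling, weighting, block, filter and probe set alternatives (2.62 to 4.65), but not within a spread class. No member was called lower in adult samples under any setting. Members called higher, and likewise carriers of the whole family, numbered 2 under quantile scaling, 1 to 2 with an array left out (Slc15a3 being added without adult replicate 3) and 0 within the arrays of narrow or of wide spread. Members whose stages did not overlap numbered 3 under quantile and under median scaling. They numbered 2 with the mean of probe sets, with a level limit of 4 and with no limit, and 1 to 5 with an array left out. Within the arrays of narrow and wide spread they numbered 11 and 29, where fewer arrays are compared and stages separate more easily. These counts stand without the share over all genes under the same setting, and the members were chosen by stage means. They describe the settings and are no result about the members. The members' median change was 1.69 with a level limit of 6, 0.082 with no limit and 0.50 to 1.11 with an array left out. Of the pumps and partners, 0 were called lower under quantile scaling, the variance trend and the mean of probe sets. With an array left out, 0 to 1 were called lower. The filter on low values also gave 0 called lower, as Wnk2, at a mean of 4.84 over 10 arrays, was not tested there. Without the probe sets whose names mark them as matching several transcripts, 1 was called higher, since the only one of Atp6v0e1 is among those. Within either spread class 0 were called higher and 0 lower. The cause of the other shifts was not tested. The replicate numbers did not pair the samples (correlation of same-numbered deviations -0.12 to 0.28), and with the replicate block 1 member was called, Slc4a7, and 135 genes of the array against 179. Over other settings the genes called numbered 153 to 276, with 168 and 0 within the narrow and wide classes and 101 to 248 with an array left out.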
